A study of Mus musculus with 4 samples.

Results

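The genes described here encode subunits of the NMDA receptor, the glutamate-gated calcium channel of excitatory synapses, in the dorsal hippocampus of female mice. The 6 genes Grin1, Grin2a, Grin2b, Grin2c, Grin2d and Grin3a were taken by symbol, and the transcript accessions of the arrays assigned 10 probes to them. All 6 genes were among the 16794 genes tested and all 10 probes among the 38231 probes tested. Each of the 10 probes was well above background on all 4 arrays, so no subunit probe was lost to the filter on dim probes.

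The study asked how excess iodine intake bears on brain development. Iodine is built into thyroid hormone, which the developing brain needs. Whole RNA of the dorsal hippocampus was taken after a battery of behavioural tests and labelled with Cy3 for Agilent 1-colour arrays. There were 2 arrays of the 20-fold iodine group (replicates 2 and 3) and 2 of the control group (replicates 2 and 3), all female. Strain, age, and the route and length of the iodine intake are not given in the sources used here, and neither is whether the replicates were separate animals. A p-value here therefore reflects the scatter of these samples alone, and part or all of that scatter may be technical. The arrays shared 1 slide and 1 scan, the iodine samples in slide columns 3 and 4 and the controls in columns 1 and 2, so position and group cannot be told apart.

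An NMDA receptor is a tetramer of obligatory GluN1 subunits, which bind glycine or D-serine, with GluN2 subunits, which bind glutamate, or with GluN3 subunits, which bind glycine. The GluN2 type sets how long the channel stays open and how strongly magnesium blocks it. In the forebrain GluN2B dominates early in life and GluN2A is added as synapses mature, while GluN2C and GluN2D are known from glia, interneurons and subcortical nuclei. Through calcium entry the receptor starts long-term potentiation at hippocampal synapses, and its block impairs spatial learning.

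The arrays were alike in quality but differed in markers of neighbouring tissue. Each array had 37535 to 37921 of its 56605 probes well above background, and spots of the same probe differed by a median coefficient of variation of 2.25 to 3.17%. All markers listed for neurons (5), CA1 pyramidal cells (4), CA3 pyramidal cells (4), dentate granule cells (4) and interneurons (6) were detected, as the hippocampus label requires. Thalamus and habenula markers (6 of 7 detected, Gbx2 not) summed to 9.31 and 18.9 times the 75th percentile signal on iodine replicates 2 and 3, against 10.8 and 9.86 on the controls. Choroid plexus markers (5 of 5 detected) summed to 53.0 and 269.0 on iodine replicates 2 and 3, against 162.6 and 143.8 on the controls. Of 5 cerebellum markers, Gabra6 and Cbln3 were not detected. The part of these differences in the subunit values was not tested.

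No subunit gene passed the test for a difference between the groups, although most values were slightly higher with iodine. The log2 difference, 20-fold iodine minus control, was above 0 in 5 of the 6 genes and ranged from -0.01 for Grin3a to 0.26 for Grin2d. The median over the 6 genes was 0.16, against -0.01 over all 16794 genes. By limma's test with Benjamini-Hochberg adjustment 0 of the 6 genes had an adjusted p under 0.05 (lowest adjusted p = 0.679), as had 0% of all genes, and 0 had an unadjusted p under 0.05, against 7.35% of all genes. The groups' arrays did not overlap in 3 of the 6 genes, all 3 higher with iodine (Grin1, Grin2c and Grin2d). Of all genes 39.9% did not overlap, 17.9% higher and 21.9% lower. Without iodine replicate 2 the median of the 6 genes was 0.08. By the marker lists, the median difference was -0.01 for neurons (2 of 5 higher) and -0.09 for CA1 pyramidal cells (1 of 4 higher). It was 0.08 for CA3 pyramidal cells and 0.10 for dentate granule cells, with 3 of 4 markers higher in each. Some marker lists of other cells were also higher with iodine, and others were lower. All 3 endothelium markers were higher without overlap between the groups (median 0.25), as were 3 of the 5 oligodendrocyte markers, among them Mbp of the myelin sheath (0.31, unadjusted p = 0.0170, adjusted p = 0.668, limma). In all, 4 of the 5 oligodendrocyte markers (median 0.12) and 6 of the 6 detected thalamus and habenula markers (median 0.41, 1 without overlap) had a difference above 0. The thalamus and habenula list deviated from its 4-array means by a median of -0.30 and 0.67 on iodine replicates 2 and 3. Among lists with a median below 0 were choroid plexus (5 of 5 lower, median -0.48, 0 without overlap) and interneurons (5 of 6 lower, -0.12). Astrocytes (-0.15) and meninges (-0.18) were others. The choroid plexus list had median deviations of -1.36 and 0.94 on iodine replicates 2 and 3, against 0.27 and 0.15 on the controls. Its lower group value thus rested on iodine replicate 2, and iodine replicate 3 was the highest array. The part of these lists in the subunit values was not tested. In this bulk tissue, fewer cells of a type and less RNA per cell cannot be told apart.

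Every probe gave the same picture of small differences and wide intervals. Of the 10 probes 8 were higher with iodine, 0 had an adjusted p under 0.05 (lowest adjusted p = 0.569, limma over 38231 probes, of which 0% passed), and 0 had an unadjusted p under 0.05, against 9.02% of all probes. The groups did not overlap in 6 of the 10 (5 higher and 1 lower), against 41.6% of all probes (23.2% higher and 18.5% lower). The plot of differences by probe shows that each of the 10 confidence intervals includes 0. The fold changes lay between 0.954 and 1.21.

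**Figure D1:**
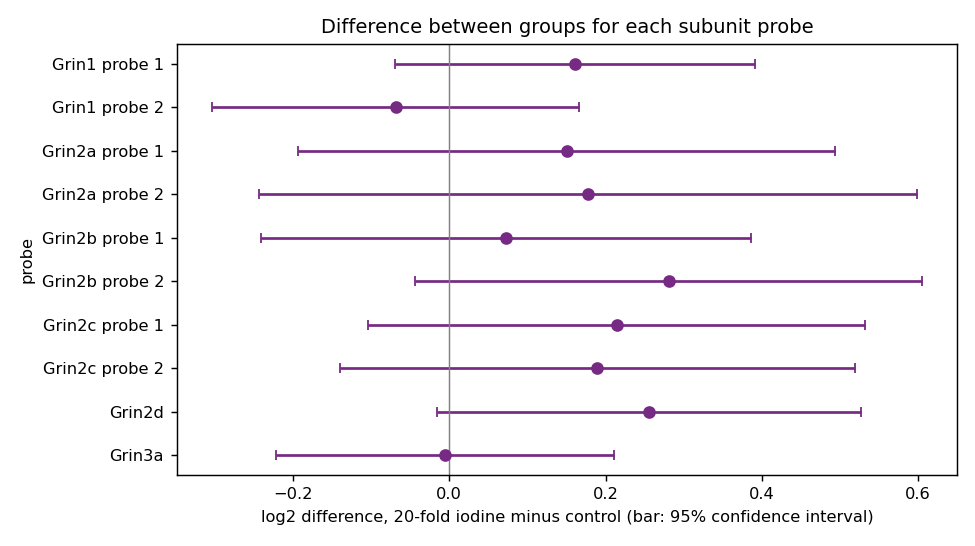
Log2 difference in signal between 20-fold iodine and control (x axis) for each of the 10 probes of the 6 subunit genes (rows; probe 1 is the brighter probe of a gene). Points are fitted differences and bars their 95% confidence intervals, on 2 arrays per group. All 10 bars cross 0, and the points run from -0.07 for Grin1 probe 2 to 0.28 for Grin2b probe 2.

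Levels below are log2 signals minus the array's 75th percentile over all probes, so 0 is a signal as bright as that percentile. Probes differ in how well they hybridise, so the levels of different subunits are not set in an order. Differences, standard errors (SE) and adjusted p are those of limma's fit over all probes, with 2 arrays per group.

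Grin1 encodes GluN1, without which no NMDA receptor reaches the surface. Its brighter probe, A_65_P18935, read 3.18 and 3.15 on the iodine arrays, against 2.95 and 3.05 on the control arrays. Both iodine arrays lay above both controls, and the groups did not overlap. The difference was 0.16 ± 0.08 (SE; fold 1.12, 95% confidence interval 0.953 to 1.31; adjusted p = 0.648). The dimmer probe, A_55_P2794809, made to another RefSeq transcript variant of Grin1, read -1.16 and -1.18 on the iodine arrays, against -1.16 and -1.04 on the control arrays. Here both iodine arrays lay just below the lower control, with a difference of -0.07 ± 0.09 (adjusted p = 0.846). The probes of this gene thus stood on opposite sides of 0, and neither passed.

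Within each array the brighter Grin1 probe stood above the dimmer one by 4.34 and 4.33 on the log2 scale with iodine, against 4.11 and 4.10 in controls, a comparison made after the values were seen. The difference of 0.23 ± 0.08 (SE, n = 2 per group) was wide beside the gaps of 0.009 between the iodine arrays and 0.014 between the controls. Its adjusted p was 0.343 (limma, over the 6092 genes with several detected probes), and its unadjusted p of 0.0362 was below 0.05, as were those of 13.2% of these genes, of which 0% passed.

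**Figure D2:**
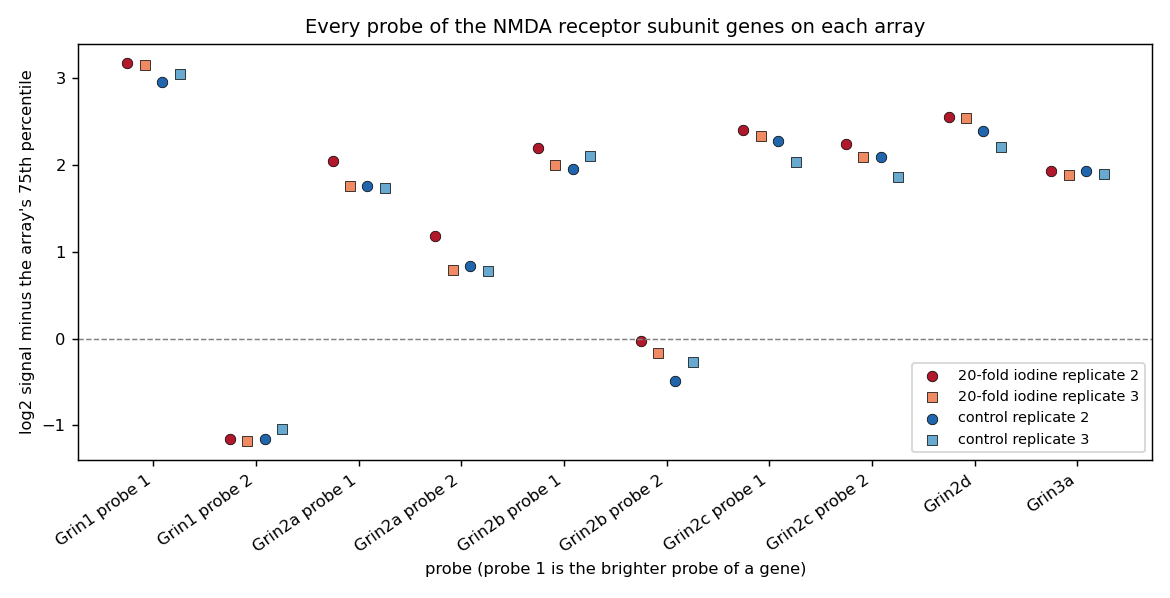
Log2 signal minus the array's 75th percentile (y axis) of the 10 subunit probes (x axis) on each of the 4 arrays. Red and orange points are 20-fold iodine replicates 2 and 3, dark and light blue points control replicates 2 and 3. Within a probe the 4 arrays span at most 0.46 (Grin2b probe 2), and only for Grin1 probe 2 and Grin2b probe 2 are all 4 below the 75th percentile.

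Grin2a encodes GluN2A, the subunit of mature synapses with fast channel closing. Its brighter probe, A_55_P1980481, read 2.05 and 1.75 on the iodine arrays, against 1.76 and 1.74 on the control arrays. Iodine replicate 2 stood above the rest and iodine replicate 3 lay between the controls. The difference of 0.15 ± 0.13 (SE; fold 1.11, interval 0.875 to 1.41; adjusted p = 0.762) was smaller than the gap of 0.29 between the iodine arrays. The dimmer probe, A_55_P2506140, read 1.18 and 0.79 on the iodine arrays, against 0.84 and 0.78 on the control arrays, with a difference of 0.18 ± 0.15 (adjusted p = 0.770). Both probes placed the same single array high, and without it their differences were 0.0045 and -0.016.

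Grin2b encodes GluN2B, the slower subunit of young synapses, which binds CaMKII. Its brighter probe, A_52_P1044964, read 2.20 and 2.00 on the iodine arrays, against 1.95 and 2.11 on the control arrays. The groups overlapped, with a difference of 0.07 ± 0.12 (SE; fold 1.05, interval 0.846 to 1.31; adjusted p = 0.885), which was -0.025 without iodine replicate 2 and -0.007 without control replicate 2. The dimmer probe, A_52_P367017, read -0.03 and -0.17 on the iodine arrays, against -0.49 and -0.27 on the control arrays. On that probe both iodine arrays lay above both controls, with a difference of 0.28 ± 0.12 (fold 1.21, interval 0.970 to 1.52; adjusted p = 0.590). It was the widest difference of the 10 probes, and it did not pass either. The rank did not hold without control replicate 2, where it was 0.17 and the Grin2d probe 0.35, nor with normexp background correction, where it was 0.18 and the Grin2d probe 0.32. Over single arrays left out it ran from 0.17 to 0.39.

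The balance of Grin2a and Grin2b was compared within each array, where the array's scaling cancels. Log2 Grin2a minus log2 Grin2b, by the brighter probes, was -0.15 and -0.25 on the iodine arrays, against -0.19 and -0.37 on the control arrays. The group means were -0.20 ± 0.07 with iodine and -0.28 ± 0.13 in controls (SD, n = 2 each), a difference of 0.08 (exact permutation test, two-sided, p = 0.667, where the smallest p that 2 arrays against 2 allow is 0.333). By the dimmer probes the same quantity was 1.21 and 0.96 with iodine, against 1.33 and 1.05 in controls, a difference of -0.10 (exact p = 0.667). The probe pairs gave opposite signs and the arrays overlapped in both, so no shift between these subunits was detectable with these arrays.

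**Figure D3:**
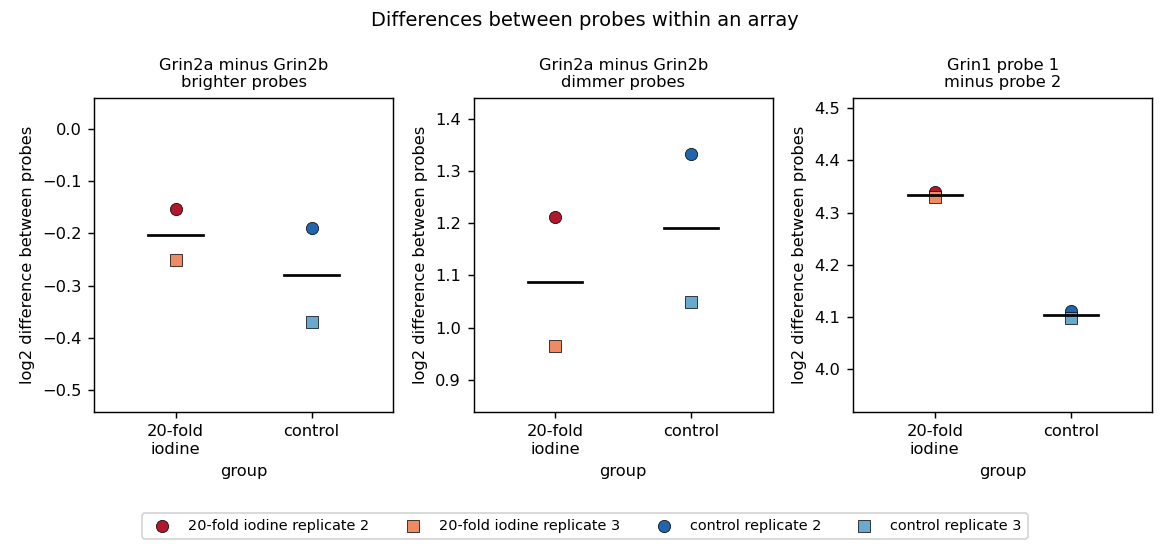
Differences in log2 signal between probes of the same array (y axis) by group (x axis, 20-fold iodine left, control right): Grin2a minus Grin2b by the brighter probes (left panel) and by the dimmer probes (middle panel), and Grin1 probe 1 minus probe 2 (right panel). Points are arrays and black lines group means. The groups overlap in the left and middle panels, and in the right panel the iodine arrays stand at 4.34 and 4.33 and the controls at 4.11 and 4.10.

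Grin2c encodes GluN2C, which gives channels with weak magnesium block and is known from cerebellar granule cells, thalamus and astrocytes. Its brighter probe, A_55_P1970090, read 2.41 and 2.33 on the iodine arrays, against 2.28 and 2.03 on the control arrays. The other probe, A_51_P436269, read 2.244 and 2.0878 on the iodine arrays, against 2.0877 and 1.865 on the control arrays. On both probes control replicate 3 was lowest, and iodine replicate 3 and control replicate 2 were nearly equal on the second. The differences were 0.21 ± 0.12 (SE; fold 1.16, interval 0.931 to 1.45; adjusted p = 0.656) and 0.19 ± 0.12 (adjusted p = 0.697). Leaving out control replicate 3 gave 0.092 and 0.078. Astrocyte markers (5 of 5 detected) summed to 41.8 on each iodine array, against 43.6 and 45.1 on the controls. The list was split, and the groups did not overlap in any of the 5: Gfap (0.29, unadjusted p = 0.0286) and Aqp4 (0.13) were higher with iodine, while Gjb6 (-0.41, unadjusted p = 0.0414), Aldh1l1 (-0.17) and Slc1a3 (-0.15) were lower. Their adjusted p were 0.668 or more (limma). Among all genes the groups did not overlap in 39.9%, and 7.35% had an unadjusted p under 0.05 (limma). The part of these markers, and of the thalamus and habenula markers given above, in the Grin2c values was not tested.

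Grin2d encodes GluN2D, a subunit with very slow closing that hippocampal interneurons express. Its single probe, A_66_P111186, read 2.56 and 2.54 on the iodine arrays, against 2.39 and 2.20 on the control arrays. The iodine arrays were close to each other and above both controls. The difference of 0.26 ± 0.10 (SE; fold 1.19, interval 0.989 to 1.44) had the smallest unadjusted p of the 10 probes (0.0593, adjusted p = 0.569, limma). The difference was 0.16 without control replicate 3 and 0.35 without control replicate 2. It also varied with the processing: 0.32 with normexp background correction (unadjusted p = 0.00202, adjusted p = 0.282, limma). With normexp plus quantile normalization it was 0.35 (unadjusted p = 0.00190, adjusted p = 0.277, limma), the lowest adjusted p of a subunit in any setting. Interneuron markers (6 of 6 detected) summed to 138.3 and 128.8 on the iodine arrays, against 147.0 and 140.7 on the controls, and 5 of the 6 had a difference below 0. Of these, Gad1, which makes GABA, read 3.69 and 3.57 on the iodine arrays, against 3.84 and 3.82 on the controls. The part of the interneuron markers in the Grin2d values was not tested.

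The promoters of Grin1, Grin2c and Grin2d are shown because RefSeq promoter sequence (GRCm38.p6) was at hand for only these 3 of the 6 genes. They are also the 3 genes whose groups did not overlap and were higher on the brighter or single probe, but that did not decide the choice. Each line gives the 250 bases before the annotated start, 5′ to 3′ on the gene's own strand, which is the minus strand for all 3. The regions are chr2:25319188-25319437 for Grin1, chr11:115267244-115267493 for Grin2c and chr7:45866682-45866931 for Grin2d. Capitals mark matches to 3 motifs searched on both strands.
Grin1: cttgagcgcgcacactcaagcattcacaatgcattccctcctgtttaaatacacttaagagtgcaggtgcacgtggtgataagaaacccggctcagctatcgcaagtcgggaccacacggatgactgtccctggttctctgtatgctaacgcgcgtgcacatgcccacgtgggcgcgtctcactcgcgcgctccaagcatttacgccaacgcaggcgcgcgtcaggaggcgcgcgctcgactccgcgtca
Grin2c: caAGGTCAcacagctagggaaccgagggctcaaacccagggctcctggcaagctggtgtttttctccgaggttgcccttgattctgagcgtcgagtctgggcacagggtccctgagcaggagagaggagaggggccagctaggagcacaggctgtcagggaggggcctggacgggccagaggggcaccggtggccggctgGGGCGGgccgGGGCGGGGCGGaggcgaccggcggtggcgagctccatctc
Grin2d: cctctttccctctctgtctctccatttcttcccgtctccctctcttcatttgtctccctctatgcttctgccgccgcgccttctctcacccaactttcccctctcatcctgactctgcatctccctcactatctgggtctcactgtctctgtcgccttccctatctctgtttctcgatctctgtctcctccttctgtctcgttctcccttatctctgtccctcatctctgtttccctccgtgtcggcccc
The motifs were the GC box GGGCGG (in 32.7% of 32841 RefSeq promoter windows of the same length), the thyroid hormone receptor half-site AGGTCA (14.0%) and the cyclic AMP response element TGACGTCA (1.55%). The Grin2c window held 3 GC boxes, of which the second and the third overlap, and 1 half-site at its far end. In the Grin1 and Grin2d windows none of these letters occurred. The share of G and C was 58.8% for Grin1, 68.8% for Grin2c and 54.4% for Grin2d, against a median of 52.4% over all windows. A match is a stretch of letters and no measured binding site.

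Grin3a encodes GluN3A, which lowers calcium entry and is known to hold back the maturation of synapses in young animals. Its single probe, A_55_P2856771, read 1.93 and 1.88 on the iodine arrays, against 1.93 and 1.89 on the control arrays. The 4 arrays spanned 0.047, the narrowest range of the 10 probes. The difference was -0.005 ± 0.080 (SE; fold 0.996, interval 0.858 to 1.16; adjusted p = 0.991), and a change within that interval was not detectable with these arrays. Grin3b, which encodes the related GluN3B and is no member of the list, had processed signals of 7.24 and 9.92 on the iodine arrays, against 8.10 and 10.2 on the controls. The lowest signals called well above background were 4.47 to 4.63, so Grin3b was near the limit of detection, and its difference was -0.01 ± 0.23. Grina, named for glutamate binding but no channel subunit, differed by 0.06 ± 0.08 (adjusted p = 0.872).

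Iodine replicate 2 was the brightest array for 8 of the 10 probes and for 5 of the 6 genes. Over all probes it was brightest for 28.5%, and over all genes for 27.2%. Control replicate 3 was dimmest for 5 of the 10 probes, against 24.0% of all probes. The median deviation of the 6 genes from their 4-array means was 0.13 and 0.02 on iodine replicates 2 and 3, against -0.05 and -0.06 on control replicates 2 and 3. On the same arrays the dentate granule markers (4 of 4 detected) had median deviations of 0.19 and -0.09, against -0.24 and 0.15, and the CA3 markers (4 of 4) 0.13 and -0.07, against -0.04 and 0.03. By this measure neurons, oligodendrocytes and microglia were highest on iodine replicate 2 too. For neurons (0.053) control replicate 2 was nearly equal (0.051), and for microglia (0.087) control replicate 3 (0.082). CA1 markers were highest on control replicate 2 (0.12, against 0.11 on iodine replicate 2). Interneuron markers (0.13, against -0.11) and oligodendrocyte precursor markers (0.080, against 0.070) were highest there too. Astrocyte markers were highest on control replicate 3 (0.082) and endothelium markers on iodine replicate 3 (0.22). By summed signal the dentate markers were highest on control replicate 3 (13.1, against 13.0 on iodine replicate 2). The part of these lists in the subunit values was not tested.

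**Figure D4:**
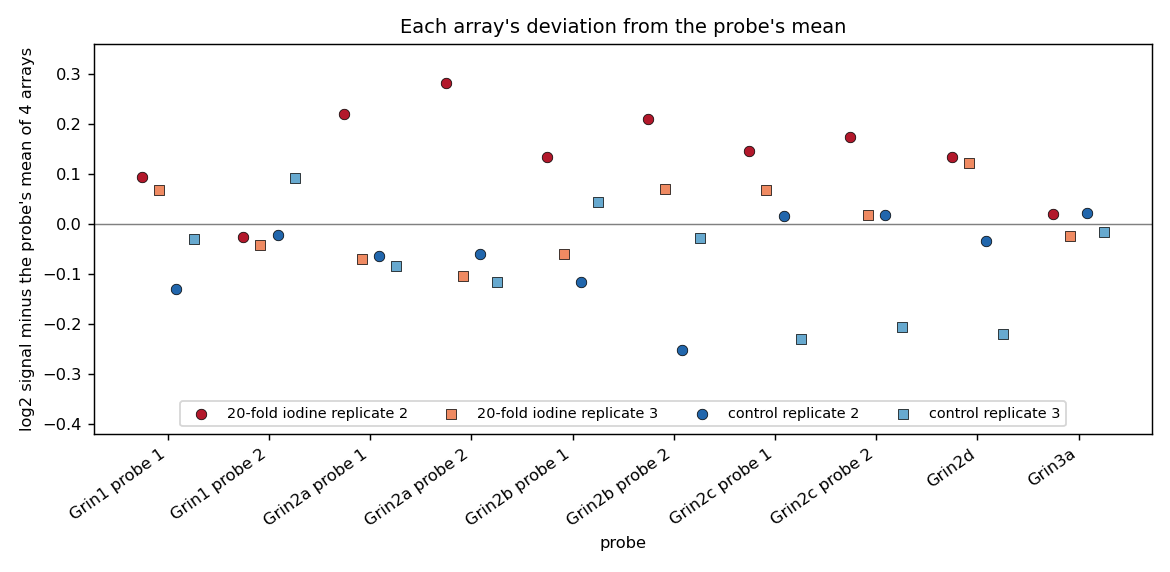
Deviation of each array's log2 signal from the probe's mean over the 4 arrays (y axis) for the 10 subunit probes (x axis), coloured by array. The dark red points of 20-fold iodine replicate 2 are the highest for 8 of the 10 probes, and the light blue squares of control replicate 3 the lowest for 5.

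Genes that work with the receptor were read from 7 lists of 66 genes, all 66 of them tested. None had an adjusted p under 0.05 by limma, 5 had an unadjusted p under 0.05 (4 higher and 1 lower, against 3.87% higher and 3.48% lower among all genes), and the groups did not overlap in 22, or 33.3%, against 39.9% of all genes. The list medians lay between -0.02 and 0.04, against -0.01 for all genes. Leaving out single arrays moved them by more than they differ: the medians then lay between -0.09 and 0.14, with -0.09 to 0.14 for Grin3b and Grina, -0.03 to 0.12 for the other ionotropic receptors, -0.05 to 0.09 for glutamate supply and clearance and -0.06 to 0.05 for anchoring and trafficking. The median of the subunit genes ran from 0.08 to 0.21 over the same settings. Values in the next paragraphs are log2 differences of each gene's brightest probe with the SE of the fit over genes.

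Among 11 other ionotropic glutamate receptor genes, 6 were higher and 5 lower, with a median of 0.01 and 2 unadjusted p under 0.05. Grik2, a kainate receptor subunit, read -1.56 and -1.61 on the iodine arrays, against -1.98 and -1.93 on the controls (0.37 ± 0.07, adjusted p = 0.668), but its other probes gave 0.07 and -0.12. The AMPA receptor genes Gria1 and Gria2, which carry fast transmission, stood at 0.01 ± 0.14 and -0.08 ± 0.12. The naming rule did not hold this pair, which was picked with its values known.

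None of the genes that set the supply of the receptor's ligands passed. The 9 genes of glycine and D-serine handling had a median of 0.01, with 5 higher and 4 lower. Srr, which makes D-serine, differed by -0.02 ± 0.09, Slc6a9, the glycine transporter GlyT1, by 0.16 ± 0.14, Psat1 of serine synthesis by -0.11 ± 0.08 and the transporter gene Slc6a20a by -0.36 ± 0.32. Without control replicate 3 the Slc6a9 difference was -0.013. The 7 genes of glutamate supply and clearance had a median of -0.02. Slc17a7, which loads glutamate into vesicles, read 3.61 and 3.47 on the iodine arrays, against 3.14 and 3.14 on the controls (0.40 ± 0.08, adjusted p = 0.668). Both iodine arrays lay above both controls by more than the gap within either group. Slc1a3, the astrocyte glutamate transporter GLAST, differed by -0.15 ± 0.10 (adjusted p = 0.760), which was -0.071 without control replicate 3 and -0.24 without control replicate 2.

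The 15 anchoring and trafficking genes had a median of 0.04, with 8 higher and 7 lower. Dlg2, which encodes the scaffold PSD-93, read 2.04 and 2.02 on the iodine arrays, against 2.26 and 2.20 on the controls (-0.20 ± 0.07, adjusted p = 0.678), while its other 3 probes gave differences of 0.06 to 0.30. Lin7c, an adaptor that carries receptor vesicles, differed by -0.18 ± 0.07 (adjusted p = 0.696). Dlg4, which encodes PSD-95, the main anchor of the receptor, read 2.21 and 2.07 on the iodine arrays, against 1.96 and 2.96 on the controls. Its difference of -0.32 ± 0.36 (adjusted p = 0.848) rested on control replicate 3 and was 0.18 without it.

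Of 13 kinases and phosphatases that act on the receptor 9 were higher and 4 lower, with a median of 0.03. Src, the tyrosine kinase that raises NMDA receptor current, read 1.08 and 1.09 on the iodine arrays, against 0.78 and 0.79 on the controls (0.30 ± 0.07, adjusted p = 0.668), and its other probe gave 0.15. The gap between the groups was wide beside the gaps within them, yet it did not pass. Fyn, another tyrosine kinase of the receptor, differed by 0.05 ± 0.07 and Camk2a, the calcium-activated kinase that binds GluN2B, by -0.14 ± 0.18 with its other probe at 0.34. The 9 genes of signalling downstream of the channel had a median of 0.04, with Rasgrf1 at 0.11 ± 0.07 and Nos1, which makes nitric oxide, at -0.01 ± 0.08.

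**Figure D5:**
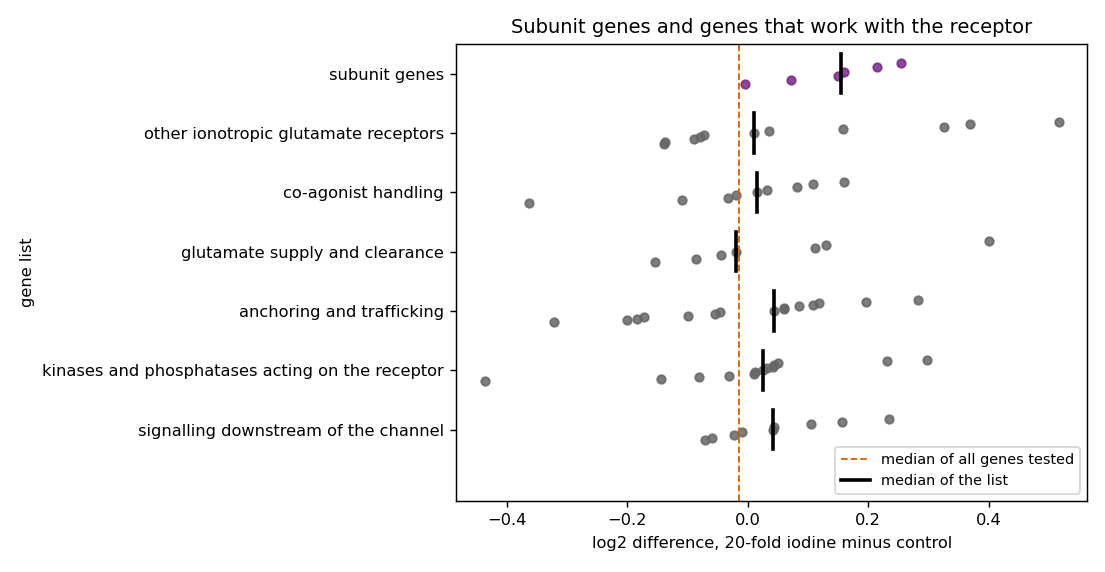
Log2 difference in signal, 20-fold iodine minus control (x axis), for the 6 subunit genes (purple) and for 6 lists of genes that work with the receptor (grey), 1 point a gene. Black lines are list medians, 0.16 for the subunit genes and -0.02 to 0.04 for the lists, and the dashed line is the median of all genes tested, -0.01.

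The genes most like each subunit in profile were found by Pearson's r over the 4 arrays, leaving out predicted gene models. They were Nptx1 and Snx27 for Grin1, Tab1 and Cstf3 for Grin2a, Tmem9 and Ftx for Grin2b, Senp5 and Suds3 for Grin2c, Tmem238 and Crybg3 for Grin2d, and Art3 and Mrpl24 for Grin3a. With 4 arrays such likeness is common: between 367 and 506 of the other genes, 2.19 to 3.01%, had an r above 0.95 with a given subunit. The 4 arrays share 1 slide and 1 scaling.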

How the data were processed

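Per the file headers, the deposited scanner files come from Agilent Feature Extraction 12.1.1.1. Used here is the authors' processed intensity, background-subtracted and spatially detrended within the array and not normalized between arrays. Controls were left out, and no spot was saturated. Spots flagged as outliers (47 to 70 an array) were left out only where the probe had an unflagged spot on that array. A probe whose spots were all flagged kept its value. Spots of a probe were averaged on the log2 scale, giving 56605 probes, and the array's 75th percentile (149.7 and 144.3 with iodine, 158.8 and 154.2 in controls, replicates 2 and 3) was subtracted. Probes were tested where 2 or more of the 4 arrays had them well above background. RefSeq accessions named 58.3% of probes (GRCm38.p6 table, matched without versions); the array's header names an older build (mm9), so no array coordinates are printed. A gene is its brightest kept probe; every probe was also fitted alone. Differences are 20-fold iodine minus control by limma 3.58.1 in R 4.3.3 (lmFit, eBayes, two-sided), with Benjamini-Hochberg adjustment over all features and a threshold of 0.05, tested on simulated data. Figures were drawn with matplotlib 3.10.9.

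The subunits and the gene lists were chosen with earlier results of these data known. The naming rule took every subunit probe, Grin3b, Grina, from each list the 2 lowest unadjusted p, 6 genes set by name (Dlg4, Srr, Slc6a9, Fyn, Camk2a, Nos1) and the 2 genes most like each subunit; a few of these are not reported. Alternatives were normexp background correction (offset 50, on median spot intensities, since the files used here hold no mean spot signal), quantile normalization, both, another scaling, other filters, an intensity trend, other probes of a gene, the replicate number as a block, and leaving out each array. Same-numbered arrays did not deviate together (correlation of deviations -0.02 over 16794 genes).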

Additional observations from a re-analysis of the deposited data

How the results depend on the processing

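Under every alternative run, 0 of the 6 subunit genes, 0 of the 10 subunit probes and 0 of the 66 partner genes had an adjusted p under 0.05, and the lowest adjusted p of a subunit was 0.277. Unadjusted p under 0.05 occurred in at most 2 of the 6 genes (with an intensity trend, and with normexp plus quantile normalization) and 4 of the 10 probes (with an intensity trend). Among all 16794 genes it occurred in 1260 with the trend and in 1458 with normexp plus quantile normalization. Among all 38231 probes it occurred in 3571 with the trend. With the replicate block the calls were the same, and genes with an unadjusted p under 0.05 numbered 1056, against 1234 without it; the shared numbers were not shown to pair the samples. The median of the subunit genes ran from 0.0759 to 0.21 as single arrays were left out. The balance of Grin2a and Grin2b was -0.013 when a gene's probes were averaged and -0.012 to 0.17 without single arrays. Single values changed sign, among them values near 0 and wider ones (Slc6a20a -0.36, Dlg4 -0.32, Dlg2 -0.20, Grin1 0.16, Slc6a9 0.16 and Camk2a -0.14 as reported). With normexp these were Grin3b (0.053), Srr (0.013) and Nos1 (0.037), with quantile normalization Grin3a (0.0105), and with both Srr (0.0455). With the mean of probes they were Dlg2 (0.10), Srr (0.022) and Camk2a (0.099), and with the second brightest probe Grin1 (-0.0685), Psat1 (0.0985), Dlg2 (0.0599) and Camk2a (0.34). Without single arrays the ranges were -0.025 to 0.17 for Grin2b, -0.028 to 0.018 for Grin3a, -0.016 to 0.37 for the dimmer Grin2a probe, -0.26 to 0.25 for Grin3b, -0.082 to 0.042 for Srr, -0.043 to 0.023 for Nos1, -0.82 to 0.18 for Dlg4, -0.013 to 0.33 for Slc6a9, -0.36 to 0.074 for Camk2a and -0.79 to 0.067 for Slc6a20a. The ranges of Grina (0.0092 to 0.11), Psat1 (-0.16 to -0.062), Fyn (0.028 to 0.073), Grin2a (0.0045 to 0.30), Grin2c (0.092 to 0.34) and the dimmer Grin1 probe (-0.13 to -0.012) kept their sign. The cause was not tested. Where 1 array was left out, the lone array of that group was assumed to vary as the other group did. The number of arrays limits the precision.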

Other observations

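The widening between the Grin1 probes, 0.23 on the log2 scale, was 0.14 with normexp, 0.26 with quantile normalization, 0.20 with both and 0.22 to 0.24 without single arrays, with adjusted p from 0.281 to 0.659 over these settings (limma). Among the 6092 genes with several detected probes, the brightest minus the second probe had an unadjusted p under 0.05 (limma) and was higher with iodine in 181 genes and lower in 622. The Grin1 pair was among the 181. It was singled out with its values known, so its place there is no separate support. For Grin2b the brighter minus the dimmer probe was 2.23 and 2.17 on the iodine arrays, against 2.44 and 2.38 on the controls (-0.21 ± 0.08, adjusted p = 0.40, unadjusted p = 0.0583), the opposite sign to Grin1, and it did not pass. The probes of Grin2a (-0.03 ± 0.09) and Grin2c (0.02 ± 0.08) moved by less than their error. In 41.5% of the 6092 genes the brightest and the second probe differed in sign between the groups.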
